A study of Equus caballus with 13 samples.

Results

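RNA of 10 glycolytic enzymes was followed in horse (Equus caballus) chondrocytes, the cells of cartilage: HK1, HK2, GPI, PFKL, PFKP, ALDOA, GAPDH, PGK1, ENO1 and LDHA. They were taken by gene symbol, and all 10 were listed among the 11056 genes of the authors' table for age and the 11249 of their table for sex. The cells came from wild-type horses, old female (5 samples), young female (5) and young male (3), and ages in years were not given. Every group was treated alike: 2 days of culture after isolation, then 4 h with 4-thiouridine (4sU), a uridine analogue that marks RNA made in that time. Each table gave 1 synthesis rate and 1 half-life per gene and group, so no spread between animals is known, the depth is unknown, and no difference below could be tested. The labels gave 12 batches for 13 samples, and batch and group cannot be told apart, since a single batch held samples of 2 groups.

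Glycolysis splits glucose into pyruvate and yields ATP without oxygen. Cartilage has no blood vessels, and its cells are known to make most of their ATP this way and to release lactate. Hexokinase, phosphofructokinase and pyruvate kinase catalyse the steps that are in effect irreversible, and the remaining enzymes work near equilibrium. The hypoxia-inducible factors, above all HIF-1, are known to raise transcription of most glycolytic genes when oxygen is low.

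Half-lives are given in hours, the unit that the labelling time implies. Synthesis rates are in arbitrary units, with no correction for gene length stated, so rates are compared here between groups for 1 gene and not between genes. The implied level is the rate times the half-life divided by ln 2, which assumes a constant RNA level during labelling. A ratio is past the threshold used here when it is at least 2-fold, an absolute log2 ratio of 1.

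Half-lives of these RNAs spanned more than an order of magnitude, from HK2 at under 1 h to GAPDH at over 30 h in each group. In young female cells of the age table the longest was 35.3-fold above the shortest, in old cells 45.6-fold and in male cells 63.7-fold. The median over the 10 enzymes was 14.4 h in young female and 12.0 h in old cells of the age table, where the medians of all genes were 3.64 and 3.43 h. In the sex table it was 14.3 h in young female and 18.8 h in male cells, against 3.74 and 4.63 h for all genes. In each group 9 of the 10 lay above the median of all genes, and HK2 lay below it.

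HK2 and HK1 both catalyse the first step, the phosphorylation of glucose. HK2 is known as the inducible hexokinase and HK1 as the widely expressed one. The half-life of HK2 was 0.969 h in young female and 0.795 h in old cells, and it was 0.967 h in young female and 0.878 h in male cells of the sex table. That placed HK2 among the shortest-lived RNAs, with 5.14% of all genes shorter-lived in young female, 3.73% in old and 3.96% in male cells. HK1 had 5.89 h in young female and 5.16 h in old cells, and 5.72 h in young female and 7.17 h in male cells of the sex table. The HK1 half-life was thus 6.08-fold that of HK2 in young female, 6.49-fold in old and 8.17-fold in male cells. With such half-lives and a constant level, 94.3% of HK2 RNA but 37.6% of HK1 RNA in young female cells would have been made within the 4 h of labelling.

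GPI, PFKL, PFKP, ALDOA and LDHA had half-lives from 6.53 to 21.8 h. GPI, which turns glucose 6-phosphate into fructose 6-phosphate, had 14.4 h in young female and 14.6 h in old cells, and 14.4 h against 21.8 h in male cells. PFKL and PFKP are the liver-type and platelet-type subunits of phosphofructokinase, the main control point of the pathway. PFKL had 13.4 h in young female, 10.7 h in old and 12.2 h in male cells. PFKP had the shorter half-life of the pair in every group, with 9.02 h in young female, 6.53 h in old and 11.3 h in male cells. ALDOA, which splits fructose 1,6-bisphosphate, had 14.8 h in young female, 11.6 h in old and 16.5 h in male cells. LDHA, which reduces pyruvate to lactate and closes the fermentative path, had 14.3 h in young female, 12.4 h in old and 21.2 h in male cells.

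The longest half-lives belonged to enzymes of the later, ATP-yielding phase. GAPDH, which oxidises glyceraldehyde 3-phosphate, had 34.2 h in young female, 36.3 h in old and 56.0 h in male cells. PGK1, which makes ATP from 1,3-bisphosphoglycerate and is X-linked in mammals, had 29.3 h in young female, 25.4 h in old and 43.8 h in male cells. ENO1, which forms phosphoenolpyruvate, had 26.7 h in young female, 29.2 h in old and 39.8 h in male cells. These 3 half-lives lay above 24 h in each group, where 4 h of labelling renews little of the RNA. In young female cells of the age table the implied new share was 7.78% for GAPDH, 9.02% for PGK1 and 9.85% for ENO1, and in male cells it was 4.83%, 6.13% and 6.73%. Differences in their half-lives therefore rest on small shares of new RNA. No enzyme of the 10 reached the ceiling of the tables, 69.3 h.

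**Figure D1:**
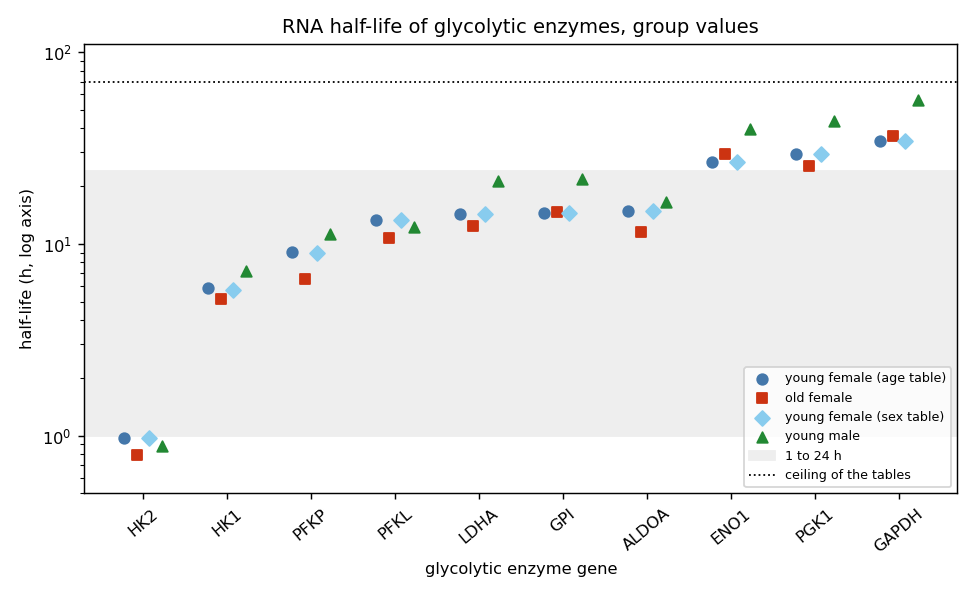
Half-life in hours (log axis) of the 10 glycolytic enzymes, ordered by their young female value in the age table; each point is 1 group value of the authors' tables and carries no error bar. HK2 lies below the shaded range of 1 to 24 h in every group, ENO1, PGK1 and GAPDH lie above it, and the remaining 6 lie inside it.

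The order of half-lives differed little between groups. HK2, HK1, PFKP and PFKL were the 4 shortest, in that order, and GAPDH was the longest in old female, young female and young male cells. The young female samples entered both tables, so their 2 values show how far an estimate moved without new animals. That fold was 1.03 for HK1 and 1.00 for the other 9 enzymes, while their synthesis rates were 1.02- to 1.05-fold higher in the age table. LDHA, GPI and ALDOA were 1.01- and 1.03-fold apart in young female cells, a spacing for which no error between animals is known. Their order changed, with ALDOA below LDHA and GPI in old and male cells. ENO1 and PGK1 also changed places in old cells.

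**Figure D2:**
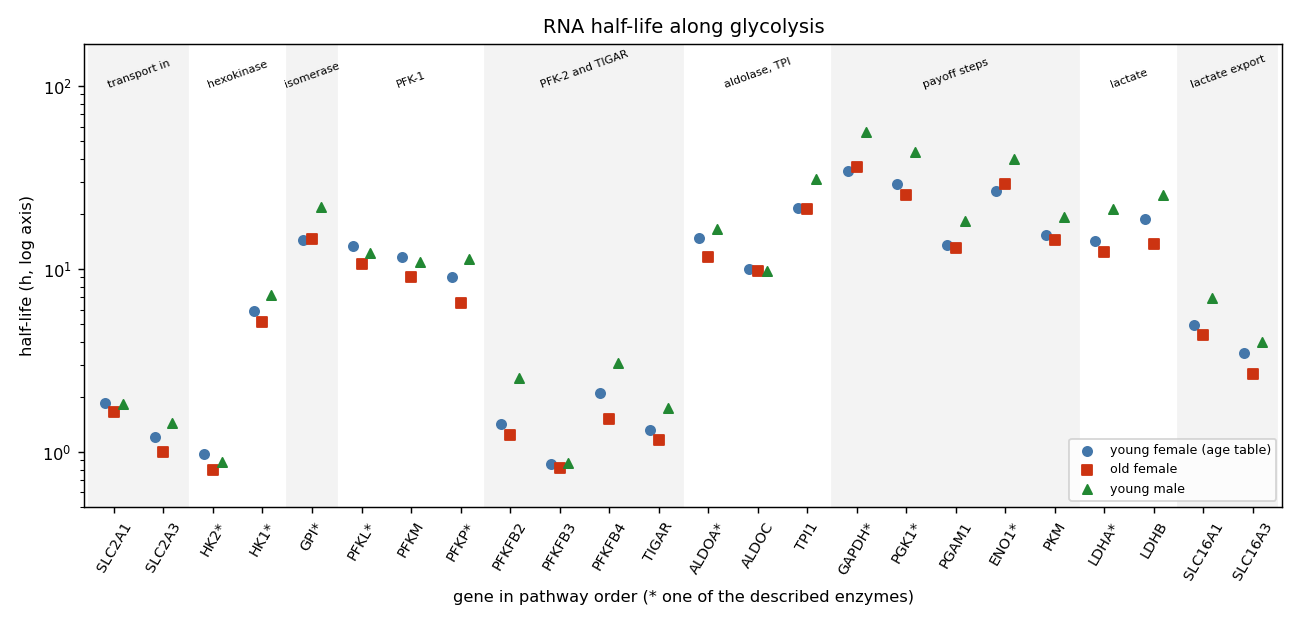
Half-life in hours (log axis) along glycolysis in young female (age table), old female and young male cells; asterisks mark the 10 enzymes and the other genes are isoforms, neighbouring steps, transporters and regulators. HK2 and PFKFB3 lie under 1 h and the glucose transporters SLC2A1 and SLC2A3 between 1 and 1.85 h, while most enzymes lie between 5 and 60 h.

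The glucose transporters SLC2A1 and SLC2A3 and the regulator PFKFB3 had half-lives under 2 h. SLC2A1, the main basal glucose transporter, had 1.85 h in young female, 1.64 h in old and 1.82 h in male cells. SLC2A3, a high-affinity glucose transporter, had 1.20 h in young female, 1.00 h in old and 1.44 h in male cells. The other listed members of the SLC2A family were longer-lived, with 5.38 h for SLC2A8, 5.62 h for SLC2A10, 9.81 h for SLC2A6 and 69.3 h, the ceiling, for SLC2A13 in young female cells of the age table. The list of glucose and lactate transporters had a median of 5.17 h there, above the 3.64 h of all genes. PFKFB3 makes fructose 2,6-bisphosphate, the strongest activator of phosphofructokinase, and had 0.861 h in young female, 0.814 h in old and 0.873 h in male cells. The fixed list of PFKFB enzymes and TIGAR, a phosphatase that lowers fructose 2,6-bisphosphate, had 4 of 5 genes in the age table, with a median half-life of 1.36 h in young female cells. The list of other glycolytic enzymes and isoforms had 10 of 17 genes there, with a median of 17.0 h. Among the latter, BPGM, which makes 2,3-bisphosphoglycerate in a side path, was short at 2.10 h, and PKM, the pyruvate kinase gene, had 15.3 h.

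The first comparison asked how age affects these RNAs in female cells. None of the 10 enzymes was past 2-fold for half-life, synthesis rate or implied level in old over young cells, where 3.53%, 7.52% and 4.12% of all genes were. Old cells had the lower implied level for 8 of the 10 (49.3% of all genes were lower), with a median log2 ratio of −0.24 against 0.00 for all genes. The 8 include GAPDH at −0.00, which was 0.07 with the young female value of the sex table, leaving 7. Half-lives were shorter for 7 of the 10 (63.1% of all genes), with a median of −0.20 against −0.08. Synthesis rates were lower for 6 of the 10 (39.8% of all genes), with a median of −0.03 against 0.08, for 4 of the 10 when the young female rates of the sex table were used, for 9 relative to the median of all genes, and for 8 relative to genes of like half-life.

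Within this comparison PFKP, ALDOA and PFKL had lower levels in old cells, with a ratio larger in size for half-life than for synthesis rate. For PFKP the log2 ratio was −0.47 for half-life and −0.04 for synthesis rate (1012 in young against 987.1 in old cells), and the level was 0.706-fold. Its log2 level ratio, −0.50, was just past 0.5 in size, as were those of 15.6% of all genes, and was −0.43 with the young female value of the sex table and −0.48 relative to genes of like half-life. ALDOA had a half-life ratio of −0.36 and a rate of 7145 in young against 7020 in old cells (−0.03), which gave a level of 0.768-fold. PFKL had −0.33 for half-life and 0.01 for rate, 1046 in young against 1056 in old cells, and a level of 0.805-fold. Among genes of like half-life in male cells, the half-life ratios of PFKP, ALDOA and PFKL stood at percentiles 10.2, 15.8 and 19.9. Relative to the median of all genes their half-life ratios were −0.38, −0.27 and −0.24, and their rate ratios −0.12, −0.11 and −0.07.

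HK1 and LDHA were lower in old cells in both quantities. The rate of HK1 was 4158 in young and 3720 in old cells (log2 ratio −0.16), its half-life ratio was −0.19, and its level 0.784-fold. LDHA had rates of 9389 and 8735 (−0.10), a half-life ratio of −0.20 and a level of 0.81-fold. GPI had a half-life ratio of 0.02 and rates of 2194 and 1910 (−0.20), with a level of 0.881-fold. HK1, GPI, PFKL, PFKP, ALDOA and LDHA, the 6 enzymes inside 1 to 24 h in both groups, all had the lower level in old cells, and their median level ratio was −0.33.

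GAPDH, PGK1, ENO1 and HK2 had log2 level ratios from −0.16 to 0.15 in old over young cells. GAPDH had rates of 7882 in young and 7443 in old cells (−0.08) and a half-life ratio of 0.08, so that its level ratio was −0.00. PGK1 had rates of 3027 and 3131 (0.05), a half-life ratio of −0.21 and a level of 0.897-fold. ENO1 had rates of 14173 and 14429 (0.03), a half-life ratio of 0.13 and a level of 1.11-fold. For HK2 the rate was 8427 in young and 10601 in old cells (0.33) and the half-life ratio was −0.29, and the level was 1.03-fold. Its higher rate and shorter half-life in old cells thus nearly cancelled. Genes of like half-life in male cells had medians of −0.14 for half-life, 0.19 for rate and 0.04 for level. Relative to them HK2 had −0.15, 0.14 and 0.00.

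**Figure D3:**
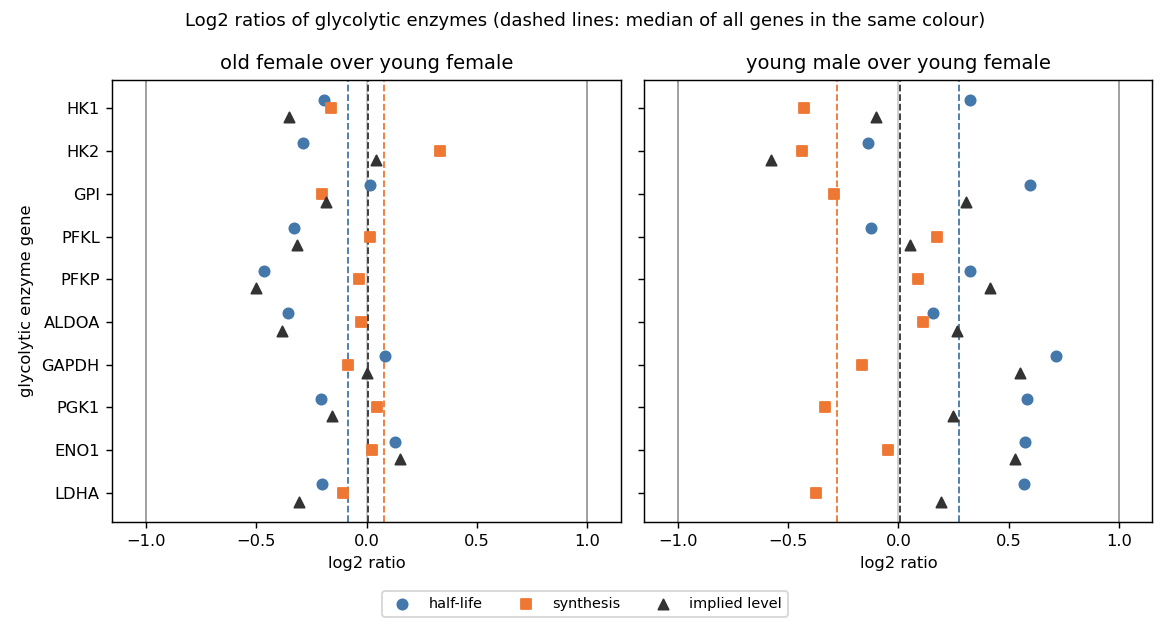
Log2 ratio of half-life (circles), synthesis rate (squares) and implied level (triangles) for each glycolytic enzyme, old over young female at left and young male over young female at right; dashed lines are the medians of all genes of the table and grey lines mark 2-fold. No point reaches 2-fold; half-lives of GAPDH, GPI, PGK1, ENO1 and LDHA are above 0.5 in male cells, though not relative to the dashed line, and levels are below 0 for 8 of 10 in old cells, with GAPDH at −0.00.

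The other comparison set young male against young female cells. Again none of the 10 was past 2-fold for half-life, rate or level, where 7.58%, 12.2% and 4.61% of all genes were. Half-lives were longer in male cells for 8 of the 10 (77.3% of all genes), with a median log2 ratio of 0.45 against 0.27 for all genes. Relative to the median of all genes 7 of the 10 were longer, and relative to genes of like half-life 5 of the 10 were, with a median of 0.02. Synthesis rates were lower for 7 of the 10 (71.1% of all genes), with a median of −0.23 against −0.28, and for 5 of the 10 relative to the median of all genes. Levels were higher for 8 of the 10 (50.5% of all genes), with a median of 0.26 against 0.01, and for 7, without PFKL, with the young female value of the age table, but relative to genes of like half-life for 4 of the 10, with a median of −0.06. For 3 of the 10 the level ratio was past 0.5 in size, upward for GAPDH and ENO1 and downward for HK2, as it was for 25.0% of all genes. With the young female value of the age table HK2 alone was past it, and relative to genes of like half-life 0 of the 10 were.

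Half-lives were at least 0.5 log2 units longer in male cells for GAPDH, GPI, PGK1, ENO1 and LDHA, 5 of the 10, as they were for 27.4% of all genes. After centring on the median of all genes, or within half-life deciles, 0 of the 10 were that much longer. GAPDH had the largest ratio at 0.71, and with a rate of 7540 in young female and 6733 in male cells (−0.16) its level was 1.46-fold. ENO1 had a half-life ratio of 0.57, rates of 13546 and 13123 (−0.05) and a level of 1.44-fold. PGK1 had a half-life ratio of 0.58, a rate of 2890 against 2296 (−0.33) and a level of 1.19-fold. GPI had 0.59 for half-life, rates of 2098 and 1715 (−0.29) and a level of 1.23-fold. LDHA had 0.57 for half-life and rates of 8976 and 6920 (−0.38), and its level was 1.14-fold. Relative to genes of like half-life the log2 level ratios of PGK1 and LDHA turned negative (−0.18 and −0.10). Those of GAPDH, ENO1 and GPI stayed positive (0.12, 0.10 and 0.01). For PGK1, GPI and LDHA more of the longer half-life was offset by a lower rate than for GAPDH and ENO1.

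PFKL, PFKP and ALDOA had higher synthesis rates in male cells, unlike the other 7 enzymes. Relative to the median of all genes the rates of GAPDH and ENO1 were higher too (0.12 and 0.23). PFKL had a rate of 1000 in young female and 1131 in male cells (0.18), a half-life ratio of −0.13 and a level of 1.04-fold. Its log2 level ratio of 0.05 turned to −0.02 with the young female value of the age table and to −0.24 relative to genes of like half-life. Its half-life ratio stood at percentile 6.38 of genes with like half-life in old cells, the lowest place among the 10. PFKP had rates of 967.8 and 1030 (0.09), a half-life ratio of 0.32 and a level of 1.33-fold. ALDOA had rates of 6831 and 7378 (0.11), a half-life ratio of 0.16 and a level of 1.20-fold. Relative to genes of like half-life the log2 level ratio of ALDOA was −0.03 and that of PFKP 0.31. The PFKL and PFKP half-lives, 1.48-fold apart in young female cells, were 1.63-fold apart in old and 1.08-fold apart in male cells.

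Both hexokinases had lower levels in male cells. HK2 had rates of 8061 in young female and 5956 in male cells (−0.44), a half-life ratio of −0.14 and a level of 0.671-fold, the largest level difference among the 10 enzymes. This level ratio, −0.58, stood at percentile 9.01 of all genes, but at 25.1 among genes of like half-life in old cells, whose median was −0.35. Relative to genes of like half-life the ratio of HK2 was −0.22, smaller in size than for PFKP (0.31) and PFKL (−0.24). HK1 had rates of 4083 and 3037 (−0.43), a half-life ratio of 0.33 and a level of 0.932-fold.

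**Figure D4:**
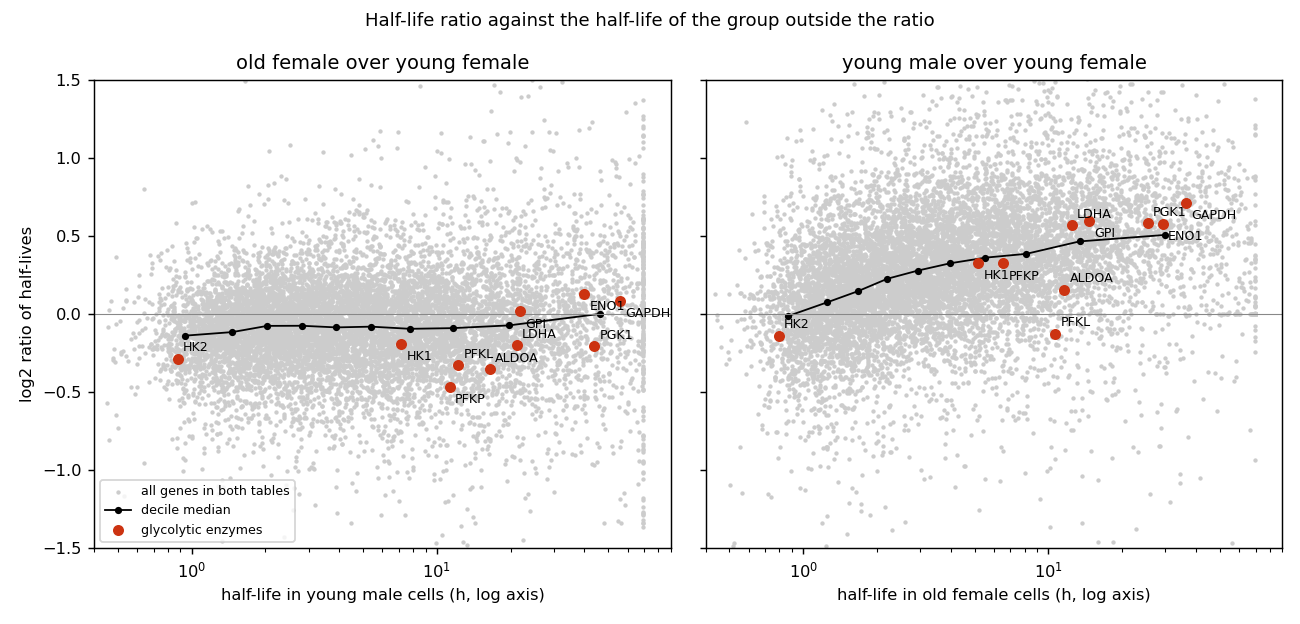
Log2 ratio of half-lives against the half-life (h, log axis) in the group outside the ratio, for all genes in both tables (grey), decile medians (black line) and the 10 glycolytic enzymes (red); genes beyond 1.5 log2 units either way or under 0.4 h lie outside the axes. In male cells the decile medians climb from −0.01 to 0.51 and most of the enzymes lie near that line, with PFKL and ALDOA below it.

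The half-life ratio in male cells was related to the half-life itself across all genes, and 6 of the enzymes lay between the extremes of that relation, in deciles 7 and 9. Genes were placed in deciles by their half-life in old cells. HK2 was in the decile of shortest half-lives, where the half-life ratio had a median of −0.01. GAPDH, PGK1 and ENO1 were in the decile of longest half-lives, where it was 0.51. Relative to the median of their decile, these 3 had ratios of 0.21, 0.07 and 0.07. ALDOA and PFKL were below the median of theirs by more, at −0.31 and −0.59. The corresponding deviations for PFKP and HK1 were −0.04 and −0.03.

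Among the enzymes whose isoforms were compared, enolase had the widest spread of level ratios. ENO2 is the neuronal and ENO3 the muscle enolase. ENO2 had a level of 0.393-fold in old and 0.414-fold in male cells, past 2-fold downward in both, with rates of 13.7 in young female and 7.38 in old cells, and of 13.1 and 9.02 in the sex table. Its half-life was 39.3 h in young female, 28.7 h in old and 23.6 h in male cells. ENO3 had a level of 1.45-fold in old and 2.27-fold in male cells, and its half-life was 21.5 h in young female and 59.6 h in male cells of the sex table. The male level ratio of ENO3 was 1.18, or 0.75 relative to genes of like half-life, which is under the threshold. ENO1, between them, had 1.11-fold and 1.44-fold. The ratios of ENO2 and ENO3 rest on low rates and small shares of new RNA. ENO3 had rates of 14.9 in young female and 12.2 in male cells of the sex table. There the implied new share in young female and male cells was 6.84% and 11.1% for ENO2 and 12.1% and 4.55% for ENO3.

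LDHB, the subunit that favours lactate oxidation, had a rate 1.91-fold higher in old than in young cells (log2 ratio 0.93) and a half-life ratio of −0.46. Its level was 1.39-fold in old cells, where that of LDHA was 0.81-fold; in male cells the values were 1.13-fold and 1.14-fold. PFKM, the muscle-type phosphofructokinase subunit, had a log2 level ratio of −0.19 by age and 0.14 by sex, beside −0.31 and 0.05 for PFKL. Like PFKL, it had a shorter half-life in male cells (−0.10). ALDOC, an aldolase isoform known from brain, had −0.00 and 0.34, beside −0.38 and 0.27 for ALDOA.

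**Figure D5:**
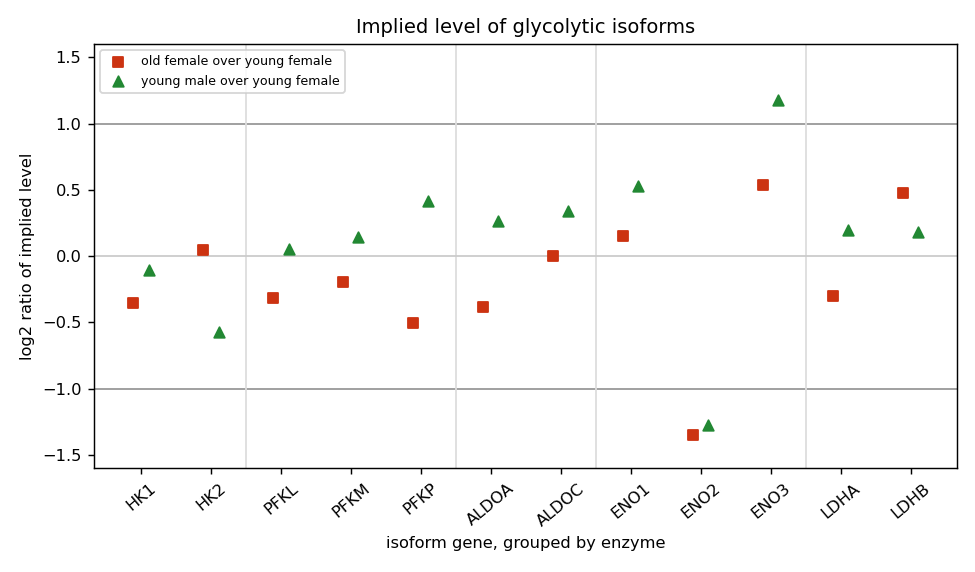
Log2 ratio of implied level for isoforms of hexokinase, phosphofructokinase, aldolase, enolase and lactate dehydrogenase, old over young female (squares) and young male over young female (triangles); grey horizontal lines mark 2-fold. ENO2 lies below the lower line in both comparisons and ENO3 above the upper line in male cells, while the other isoforms lie within 2-fold.

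TPI1, which interconverts the triose phosphates, had a log2 level ratio of −0.06 by age and 0.37 by sex. PGAM1, the mutase before enolase, had −0.14 and 0.33, and PKM had −0.17 and 0.27. Of the 10 other glycolytic genes listed in the age table, 8 had a lower level in old cells, where 49.3% of all genes did, and 1, ENO2, was past 2-fold (4.12% of all genes). For ALDOC, ADPGK, a glucokinase that uses ADP, and TPI1 the ratio was −0.00, −0.01 and −0.06, and it turned positive with the young female value of the sex table (0.06, 0.06 and 0.01 in that order). In male cells 8 of 10 had a higher level (50.5% of all genes), with ENO3 past 2-fold upward and ENO2 downward (4.61% of all genes in either direction). Relative to genes of like half-life 3 of these 10 were higher in male cells.

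Of the regulators of phosphofructokinase, PFKFB2, PFKFB4 and TIGAR, 3 of the 4 listed genes, were past 2-fold downward for synthesis rate in male cells, where 12.2% of all genes were past it in either direction and 71.1% had a lower rate. Their log2 ratios were −1.27, −1.10 and −1.21, and PFKFB3 had −0.15. After centring on the median of all genes the 3 had −0.996, −0.83 and −0.93, under 2-fold, and PFKFB3 had 0.13. The half-lives of the 3 were longer in male cells (0.73, 0.50 and 0.29), and their levels were 0.684-, 0.659- and 0.532-fold. In old cells none of the 4 was past 2-fold for any quantity.

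Transporters at both ends of the pathway were listed for 10 of 14 genes. SLC16A7, a monocarboxylate carrier with high affinity for pyruvate, had a level of 0.343-fold in old and 0.426-fold in male cells, with a rate of 347.1 in young and 158.2 in old cells. SLC16A1 and SLC16A3, the main lactate carriers, had level ratios (log2) of −0.71 and −0.18 by age and of −0.19 and 0.30 by sex. SLC2A1 had −0.25 and −0.26, and SLC2A3 0.24 and −0.15. Relative to genes of like half-life their male ratios were −0.04 for SLC2A1 and 0.20 for SLC2A3. SLC2A13, a proton-coupled myo-inositol carrier of the same family, was past 2-fold for half-life and rate in both comparisons but not for level. Its young female half-life was at the ceiling in the age table and 54.5 h in the sex table.

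Pathways that branch from glycolysis were read against all genes, of which 3.53%, 7.52% and 4.12% were past 2-fold for half-life, rate and level in old cells. For half-life, rate and level in old cells 0 of 11 genes of pyruvate dehydrogenase and its kinases, 0 of 7 of the pentose phosphate pathway, 0 of 9 of glycogen metabolism and 0 of 17 of the citric acid cycle were past it. In male cells 7.58% of all genes were past it for half-life, and 1 of 17 citric acid cycle genes was. This was citrate synthase (CS), which starts the cycle, with 5.63 against 2.74 h (log2 ratio 1.04, and 0.76 after centring). The level ratio of CS was 0.18. In the lists for pyruvate dehydrogenase, pentose phosphate and glycogen the male half-life count was 0 of 10, 0 of 7 and 0 of 9. In old cells 63.1% of all genes had the shorter half-life, with a median log2 ratio of −0.08. That was so for 7 of 7 pentose phosphate genes (median −0.40), 9 of 11 of pyruvate dehydrogenase and its kinases (−0.31), 13 of 17 of the citric acid cycle (−0.20) and 6 of 9 of glycogen metabolism (−0.10). Gluconeogenesis had 3 of 7 genes listed in the age table and 4 in the sex table. Of these FBP1, which opposes phosphofructokinase, was in the sex table only, with half-lives of 8.60 h in young female and 18.5 h in male cells (log2 ratio 1.11, and 0.83 after centring) and a level ratio of 0.52.

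Of 9 listed genes for HIF factors, oxygen sensing and MYC, 6 had a higher level in old cells (median log2 ratio 0.07) and 4 in male cells (−0.00), beside 50.7% and 50.5% of all genes. HIF1A, the regulated subunit of HIF-1, had a log2 level ratio of 0.36 by age and −0.11 by sex, and EPAS1, which encodes HIF-2α, had 0.03 and 0.06. EGLN3, an oxygen-sensing hydroxylase and itself a HIF target, had a rate of 496.5 in young and 1239 in old cells and a level 2.20-fold higher in old cells. In male cells its level was 1.38-fold. MYC, another activator of glycolytic genes, had a male rate ratio of −1.21, or −0.93 after centring, and a level ratio of −0.76. Of 18 HIF target genes outside glycolysis, 14 had higher levels in old cells (log2 ratio 0.14 at the median), where 50.7% of all genes were higher and their median was 0.00. Relative to genes of like half-life 12 of the 18 were higher, with a median of 0.11. In male cells 9 of the 18 were higher, with a median of −0.01, against 50.5% of all genes. CA9, a carbonic anhydrase used as a hypoxia marker, had a level 2.94-fold higher in male cells and 1.36-fold in old cells. ANGPTL4, a secreted lipase inhibitor, had 0.474-fold and 0.482-fold.

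Some values of this list rested on unstable estimates, and others fell under 2-fold after centring. ADM, which encodes adrenomedullin, had a half-life of 0.0740 h in the age table and 0.631 h in the sex table in the same young female samples. Its half-life ratio in old cells was 2.96, and −0.13 with the other young female value. DDIT4, an mTOR inhibitor, had 0.617 h in the age and 0.0816 h in the sex table, and its male half-life ratio of 2.66 was −0.26 with the other value. ANKRD37 had a half-life ratio of −1.05 in old cells, and −0.96 after centring. P4HA1, a collagen prolyl hydroxylase, had 57.1 h in male against 23.7 h in young female cells, a ratio of 1.27, and 0.995 after centring. The young female half-life of HK2 moved by 1.00-fold between the tables.

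The genes whose profile lay closest to the median of the 10 enzymes were MDH2, VARS2, EML3, BANF1 and TAF11. The measure was the Euclidean distance over 4 log2 ratios, half-life and synthesis rate in each comparison, among 8019 other genes whose half-life lay from 1 to 24 h in every group. These comparisons share the young female samples. MDH2, mitochondrial malate dehydrogenase, was at 0.033 and had half-life ratios of −0.21 by age and 0.45 by sex. Among the 10 enzymes PGK1 was closest to the median, at 0.19, and HK2 and PFKL were farthest, at 0.73 and 0.71.

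Chondrocyte identity was checked on marker genes. All 10 chondrocyte markers were listed. Their level was lower in old cells for 6 of the 10 (49.3% of all genes), with a median log2 ratio of −0.31, and higher in male cells for 9 of the 10 (50.5% of all genes), with a median of 1.49. Their summed level, in which abundant genes weigh most and gene length is not corrected for, was 0.909-fold in old and 2.48-fold in male cells; COL2A1 was 0.645-fold and 3.34-fold. Of 8 fibroblast and synovial lining markers 6 were listed for age and 7 for sex. In old cells 5 of the 6 had a lower level (against the same 49.3%), with a median log2 ratio of −1.06, and DCN was the 1 that was higher (1.35); the sum, weighted in the same way, was 1.43-fold. In male cells 6 of the 7 had a higher level (against the same 50.5%), with a median of 1.39, and the sum was 2.33-fold; COL1A1 and COL1A2 were 18.3-fold and 10.5-fold higher in male cells. PRG4 was in neither table. Relative to genes of like half-life the median log2 level ratio in male cells was 1.06 for the 10 chondrocyte markers. It was 0.95 for the 6 fibroblast and synovial lining markers that could be placed in deciles. Median half-lives of the 2 marker lists in male cells were 48.1 and 63.7 h, beside a ceiling of 69.3 h, so these levels rest on small shares of new RNA. Of endothelial and haematopoietic markers 1 of 5 each were listed, VWF and CD14, and of 6 muscle and erythroid markers 0. The values of the glycolytic enzymes in old and in male cells stand beside these shifts in marker genes, and the part of cell makeup or culture state in them was not tested. In such bulk samples, fewer cells of a type and less RNA per cell cannot be told apart.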

How the data were processed

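RNA kinetics were measured in 13 cultures of horse chondrocytes. Per the labels' protocols, RNA was alkylated with iodoacetamide for 15 min, which lets 4sU be read as a base change, and stranded libraries were made after poly(A) selection. cutadapt 4.5, STAR 2.5.3 and the genome build EquCab3.0 are named in the submitters' processing notes. The kinetic model, the gene filter and the way replicates were combined are not given in the sources used here. The authors deposited 2 tables, each with a synthesis rate and a half-life per gene for 2 groups, per the file headers. The tables have 0 columns of values per sample. Half-lives were read as hours, and at their ceiling the decay rate is 0.01 per h. The column headed "Young" was read as young female, because the young female labels and no young male label name that table.

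Log2 ratios were taken within a table (Python 3.11.15, pandas 2.3.3), with no pseudocount and no gene filter. Since the tables hold no values per sample, no test was possible. The implied level and the deciles are derived quantities. For centring within deciles, genes in both tables were ordered by half-life in the group outside the ratio, into 10 bins. The procedure was tested on simulated data without noise and with bins set by a group of the ratio, so its error here is unknown. Enzymes and gene lists were chosen with earlier results of these data known. Genes named beyond the 10 enzymes were list members past 2-fold, isoforms and neighbouring steps set by name, and the 5 closest profiles; BPGM, ADPGK, the 2 lactate carriers, SLC2A3, SLC2A6, SLC2A8, SLC2A10 and single markers were named after their values were seen. Genomic positions and sequences were not used here. Reads shared with processed copies of genes, known for GAPDH in mammals, were not assessed.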

Additional observations from a re-analysis of the deposited data

How the results depend on the processing

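The count of enzymes past 2-fold was 0 of 10 for half-life, synthesis rate and level in both comparisons, and it remained 0 after centring on all genes, with young female values from the other table, within 1 to 24 h and after centring within half-life deciles. No test stands behind these counts. At a threshold of 0.5 it was 5 for half-life and 3 for level in male cells and 1 for level in old cells. These counts, combined with the alternatives after seeing the data, were 0, 3 and 1 after centring, 5, 1 and 0 with the other young female value (and 1 for male synthesis, otherwise 0), 2, 0 and 1 among the 6 enzymes within 1 to 24 h, and 1, 0 and 0 within deciles, where the 1 was PFKL, downward. A median was taken as moved beyond 0.05 log2 units.

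Centring on all genes moved the median half-life ratio to −0.12 in old and 0.17 in male cells and the median synthesis ratio to −0.11 and 0.052. With the other table's young female value, synthesis moved to 0.034 in old and −0.29 in male cells and level to −0.18 and 0.19. Within 1 to 24 h, which leaves 6 enzymes, half-life moved to −0.26 and 0.32, synthesis to −0.10 in male cells and level to −0.33 in old cells. Within deciles half-life moved to −0.14 and 0.017, synthesis to −0.081 and −0.12, and the male level to −0.064. Without HK2, an alternative chosen after seeing the data like those on the level, the old level was −0.30, and in male cells half-life was 0.57 and synthesis −0.16. Apart from the direction turns at the synthesis and male level medians given here, medians kept their sign; the cause was not tested. Of 60 ratios of single enzymes, 6 turned sign on centring, 4 with the other young female value and 10 within deciles, and 0 were past 2-fold. No paired analysis was possible because the tables hold no values per sample, and for the same reason no replicate could be left out. Depth is unknown, and half-lives far from 4 h limit the precision for HK2, GAPDH, PGK1 and ENO1.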
